A study of Homo sapiens with 9 samples.

Results

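Retinoid metabolism and the retinoic acid receptors were followed through 9 genes, DHRS3, RDH10, ALDH1A1, ALDH1A2, ALDH1A3, CRABP2, RARA, RARB and RARG, in the human ovarian cancer line SKOV3. They were taken by symbol from the 36785 genes of the deposited data; all 9 were present and all 9 passed the low-count filter that left 21296 genes for testing. Every group had received lentivirus. The groups were sh3 (genotype STXBP6 knockdown_3), sh1 (genotype STXBP6 knockdown_1) and shNC (genotype NC, used here as the control), with 3 libraries each. RNA was selected with oligo(dT) and sequenced as strand-marked paired reads. Nothing in the labels tells whether replicates came from separate cultures, and each p-value therefore reflects library-to-library spread, which may be technical.

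Retinol, which is vitamin A, is oxidised reversibly to retinal and then irreversibly to retinoic acid, the form that acts on genes. RDH10 carries out the first oxidation, DHRS3 reduces retinal back to retinol, and the ALDH1A enzymes make retinoic acid from retinal. CRABP2 carries retinoic acid to the nucleus, where the receptors RARA, RARB and RARG bind DNA as heterodimers with the retinoid X receptors. RARB and DHRS3 are themselves classical retinoic acid-induced genes, and CYP26 enzymes break retinoic acid down.

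The libraries held 57654447 to 69264400 counts, and a floor of 3 counts corresponded to 0.0433 to 0.0520 CPM (counts scaled to library size), for counting error only. STXBP6, the labelled target, had 18 to 31 counts in sh3, 4 to 26 in sh1 and 0 to 15 in shNC. The few sh3 counts lay above those of shNC and the sh1 counts overlapped them, so no fall of the targeted transcript was seen. The labels could not be checked in this way, and every direction rests on them. Of 14 listed markers of ovarian carcinoma cells, 11 averaged at least 1 FPKM (fragments per kilobase of gene, scaled to library size), while CDH1, MUC16 and WT1 did not. Of the markers of other cells, 4 of 10 for fibroblasts and 1 of 7 for leukocytes (CD68, at 17.3 to 18.3 FPKM in sh3, 10.3 to 11.1 in sh1 and 13.55 to 14.9 in shNC) reached that level, while the pan-leukocyte gene PTPRC had at most 4 counts. In bulk RNA, fewer cells of a type and less RNA per cell cannot be told apart.

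The 9 genes differed widely in level per length. Among shNC libraries RARG stood highest at 11.5 ± 0.20 FPKM, followed by RDH10 at 10.7 ± 0.465, RARA at 5.18 ± 0.185 and ALDH1A3 at 3.63 ± 0.273 FPKM (SD, n = 3). DHRS3 followed at 2.98 ± 1.55 FPKM and CRABP2 at 2.39 ± 0.184 FPKM, and the values of DHRS3 overlapped those of both its neighbours in this order. RARB had 0.322 ± 0.0698 FPKM, and ALDH1A1 at 0.0865 ± 0.0480 and ALDH1A2 at 0.0559 ± 0.0224 FPKM stood lowest and overlapped each other (SD, n = 3). In sh3 the order was RARG, RARA, RDH10, ALDH1A3, CRABP2, ALDH1A1, DHRS3, RARB and ALDH1A2, with overlapping values for CRABP2 and ALDH1A1 alone among neighbours. In sh1 it was RARG, RARA, RDH10, ALDH1A3, CRABP2, DHRS3, RARB, ALDH1A1 and ALDH1A2, with DHRS3 overlapping RARB, RARB overlapping ALDH1A1 and ALDH1A1 overlapping ALDH1A2. RDH10 thus ranked below RARA by FPKM in sh3 and sh1 and above it in shNC.

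**Figure D1:**
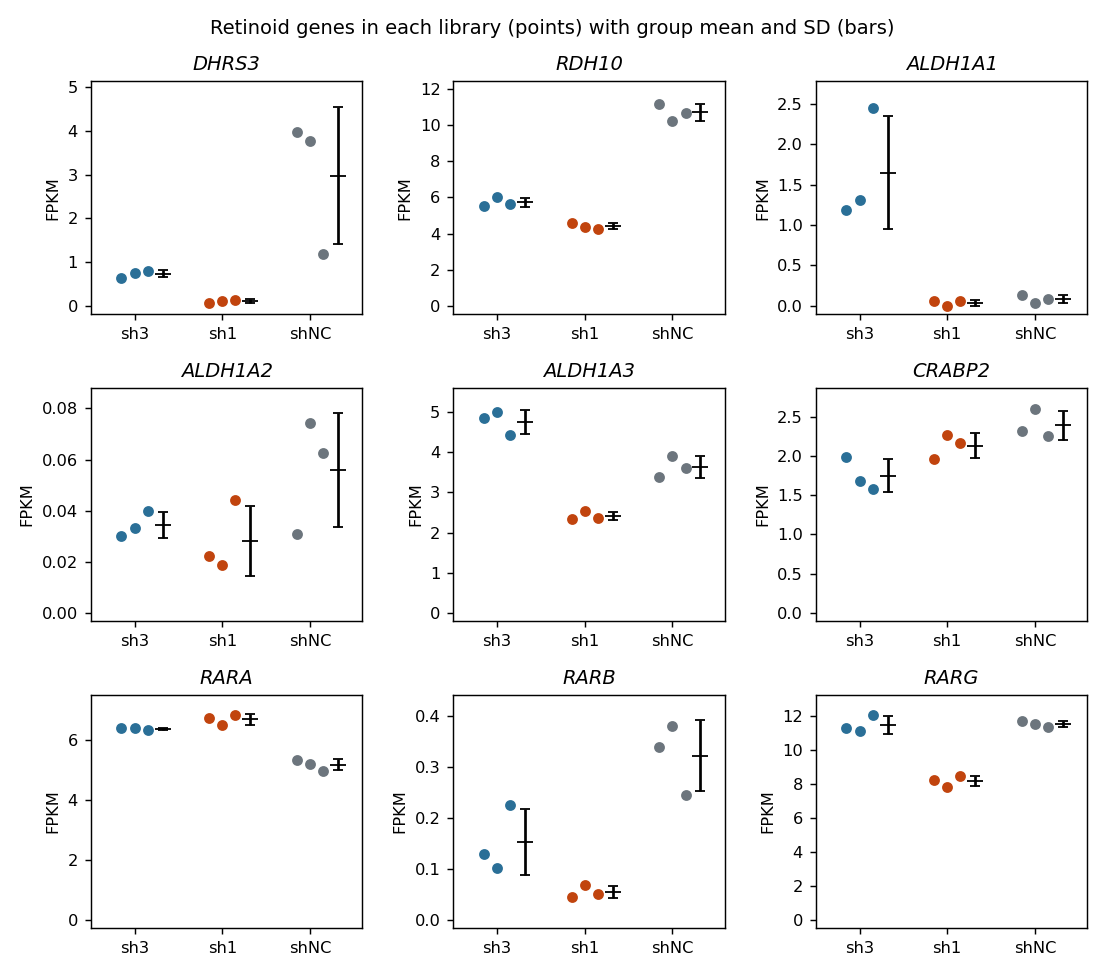
FPKM (vertical axes, linear, each with its own range) of the 9 retinoid genes in the libraries of sh3, sh1 and shNC; points are libraries and the black bar is the group mean with its SD (n = 3). DHRS3 and RDH10 are lowest in sh1 and highest in shNC, while ALDH1A1 is above 1 FPKM in sh3 libraries only.

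The comparisons asked how each hairpin stood against shNC and how the hairpins differed. DHRS3 and ALDH1A1 were chosen by their measured changes between these same libraries, so their values are descriptions without a test. The other 7 genes were included by function, with results on these libraries known, and keep the adjusted p of the fit over all genes. Of these 7, sh3 against shNC called 2 higher and 2 lower, beside 14.4% of all tested genes higher and 12.4% lower (26.9% in either direction). Of the same 7, sh1 against shNC called 1 higher and 4 lower, beside 19.9% and 18.8% of all genes (38.7% in either direction). Between the hairpins, sh3 minus sh1 called 4 higher and 0 lower, beside 12.9% and 13% of all genes (25.9% in either direction). Over the same 7 genes, the CPM values of sh3 lay wholly above shNC for 2 and wholly below for 3, where 20.8% and 19.8% of all genes did so (40.5% in either direction). Those of sh1 lay above shNC for 1 and below for 4, against 24.6% and 25.3% of all genes (49.9% in either direction). Those of sh3 lay above sh1 for 4 and below for 1, against 21% and 20.8% (41.8% in either direction). Both comparisons with shNC use the same 3 control libraries.

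**Figure D2:**
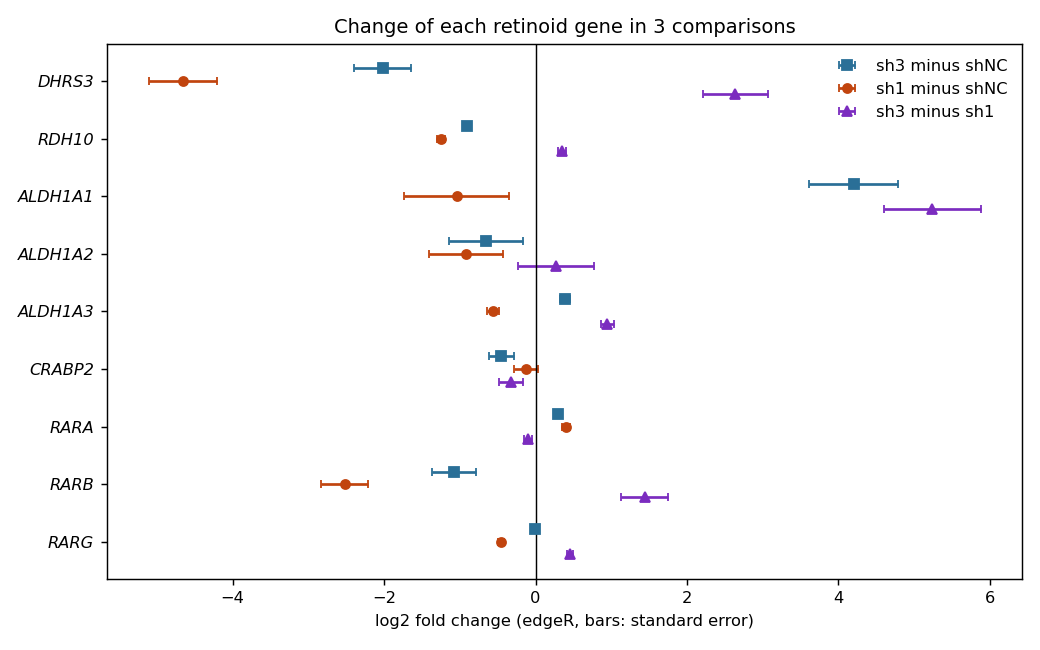
Log2 fold change of CPM (horizontal axis) with its standard error for the 9 genes in sh3 minus shNC (squares), sh1 minus shNC (circles) and sh3 minus sh1 (triangles). DHRS3, RDH10 and RARB lie below 0 in both comparisons with shNC, as do ALDH1A2 and CRABP2, which were not called, and RARG, at -0.01 with sh3. RARA lies above 0 in both, and ALDH1A3 and ALDH1A1 lie on opposite sides of 0.

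The enzymes that interconvert retinol and retinal were both lower in the hairpin libraries. For RDH10 (ENSG00000121039, GRCh38 chromosome 8, 73294602 to 73325281, plus strand), the libraries had 32.2, 34.5 and 32.3 CPM in sh3, 26.8, 25.6 and 25.4 CPM in sh1 and 64.0, 58.9 and 61.7 CPM in shNC. All 6 hairpin libraries lay below all 3 shNC libraries, and the sh3 values lay above the sh1 values. RDH10 fell 1.86-fold with sh3 (log2 -0.90 ± 0.05 SE, adjusted p = 2.6e-07, edgeR) and 2.37-fold with sh1 (log2 -1.25 ± 0.05 SE, adjusted p = 8.0e-09, edgeR). The hairpins differed by 0.35 ± 0.05 on the log2 scale (adjusted p = 3.6e-04, edgeR). RDH10 overlaps the ribosomal protein gene RPL7 on the opposite strand, and no source used here states a strand setting for the counting, so its count is uncertain. RPL7 held 22666 to 30293 counts and moved the other way, by 0.12 with sh3 and 0.10 with sh1 on the log2 scale (adjusted p = 0.026 and 0.032, edgeR).

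DHRS3 (ENSG00000162496, chromosome 1, 12567910 to 12618210, minus strand) had 2.49, 2.86 and 3.04 CPM in sh3, 0.264, 0.466 and 0.6005 CPM in sh1 and 15.1, 14.3 and 4.53 CPM in shNC. The groups did not overlap, although shNC replicate 3 stood well below the other shNC libraries. Its log2 difference was -2.02 ± 0.38 (SE) for sh3 minus shNC, 4.05-fold lower, and -4.66 ± 0.45 for sh1 minus shNC, 25.3-fold lower. For sh3 minus sh1 it was 2.64 ± 0.43 (SE). Leaving out single libraries gave -2.39 to -1.75 for sh3 minus shNC and -5.04 to -4.39 for sh1 minus shNC. As FPKM, RDH10 was 7.04 to 8.55 times DHRS3 in sh3 libraries and 29.1 to 70.3 times in sh1 libraries, against 2.71 to 8.99 times in shNC libraries. The sh3 range of this ratio lay inside that of shNC, whose highest value came from replicate 3, and the sh1 range lay above both.

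Of the 3 retinal dehydrogenases, ALDH1A3 (ENSG00000184254, chromosome 15, 100877714 to 100916626, plus strand) was the most abundant of them per length in every library. It had 28.25, 28.8 and 25.4 CPM in sh3, 13.7, 14.9 and 14.1 CPM in sh1 and 19.4, 22.6 and 20.9 CPM in shNC. All sh3 values lay above shNC and all sh1 values below it. ALDH1A3 rose by 0.39 ± 0.07 (log2, SE) with sh3 (adjusted p = 0.0021, edgeR) and fell by 0.56 ± 0.08 with sh1 (adjusted p = 9.9e-05, edgeR). The direct difference, sh3 minus sh1, was 0.95 ± 0.08 (adjusted p = 4.1e-06, edgeR), or 1.93-fold. Its antisense gene ALDH1A3-AS1 held at most 21.0% of the ALDH1A3 count and was not called in any of these comparisons (log2 0.19 with sh3 and 0.00 with sh1, adjusted p = 0.64 and 1, edgeR).

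ALDH1A1 (ENSG00000165092, chromosome 9, 72900671 to 73080442, minus strand), the family member often used as a stem-like marker in ovarian cancer, had 251, 243 and 458 counts in sh3. It had 11, 0 and 14 counts in sh1 and 29, 9 and 15 counts in shNC. The sh3 libraries stood above the other 6, which overlapped. The level was 5.07 ± 2.1 CPM in sh3, 0.129 ± 0.112 CPM in sh1 and 0.274 ± 0.149 CPM in shNC (SD, n = 3). The log2 difference was 4.20 ± 0.59 (SE) for sh3 minus shNC, 18.35-fold, and 5.24 ± 0.64 for sh3 minus sh1. For sh1 minus shNC it was -1.04 ± 0.69 (SE). With so few counts in sh1 and shNC, near the floor, these differences are imprecise. Leaving out single libraries gave 3.81 to 4.7 for sh3 minus shNC and 4.69 to 5.75 for sh3 minus sh1. For sh1 minus shNC the range was -1.55 to -0.49.

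Some hepatocyte markers moved with ALDH1A1. ALDH1A1 is itself abundant in liver. Among 23 measured hepatocyte markers 9 had all sh3 values above the other 6 libraries, and the rest did not. The share of all genes with that pattern was not computed. Of all tested genes 20.8% had sh3 values wholly above shNC, and 21% had them wholly above sh1. Each of those shares concerns a single group, and only 15 of the 23 markers were tested. Neither is a matching baseline, so 9 of 23 is not read as an excess. ALB, the plasma protein albumin, had 340, 339 and 967 counts in sh3, 12, 0 and 8 in sh1 and 22, 18 and 11 in shNC, and sh3 replicate 3 was highest for both genes. APOB, the structural protein of very low density lipoprotein, had 130, 165 and 277 counts in sh3, 0, 0 and 0 in sh1 and 4, 0 and 0 in shNC. Summed over the list, the level was 5.84 to 10.8 FPKM in sh3, 4.33 to 4.66 in sh1 and 1.88 to 2.04 in shNC. SERPINA1 went against this order, with 316 to 364 counts in sh3, 797 to 1052 in sh1 and 187 to 250 in shNC. Other defining liver genes were at or near 0 in sh3: ARG1 had 0 counts in all 3 libraries, TAT at most 5, HP at most 8 and CYP3A4 at most 4. SERPINA1 was the only marker averaging 1 FPKM or more. Markers such as APOB, with at most 4 counts in any library outside sh3, could pass the low-count filter only through sh3. Calls among the markers are therefore not counted here. The part of these markers in the ALDH1A1 values was not tested.

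**Figure D3:**
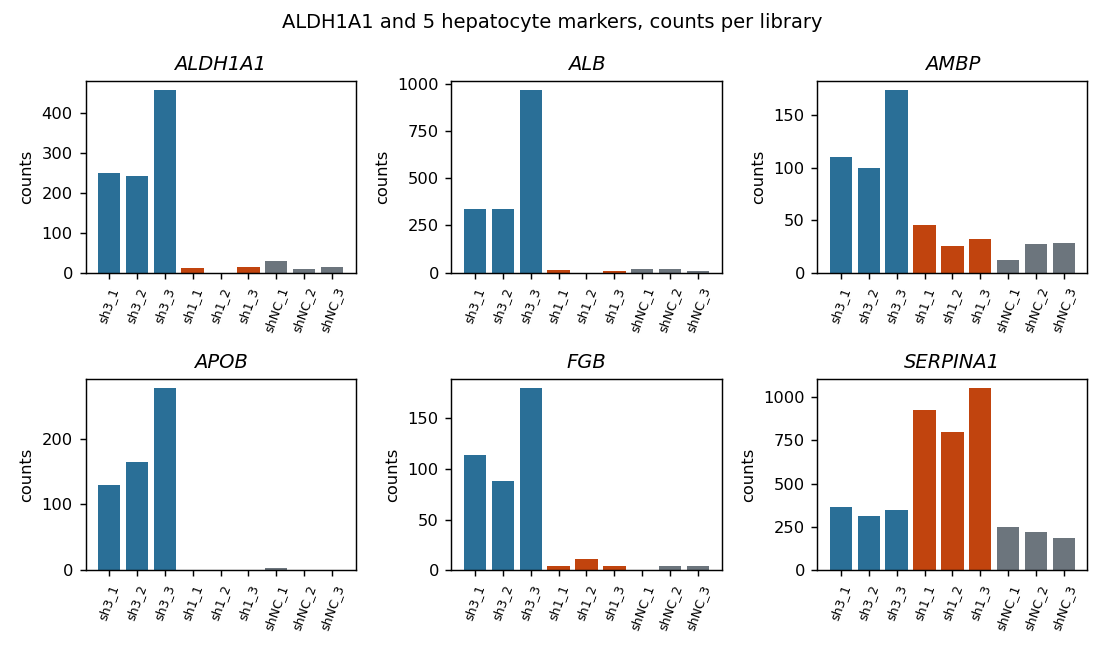
Counts per library (vertical axes, linear from 0) of ALDH1A1 and of 5 hepatocyte markers, in sh3 (blue), sh1 (red) and shNC (grey). ALDH1A1, ALB, AMBP, APOB and FGB are highest in the 3 sh3 libraries, with sh3 replicate 3 highest of all, while SERPINA1 is highest in sh1.

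ALDH1A2 (ENSG00000128918, chromosome 15, 57953425 to 58473913, minus strand) was near the floor in every group, with 19, 19 and 24 counts in sh3, 12, 11 and 29 in sh1 and 19, 47 and 33 in shNC. The groups overlapped and no comparison was called (adjusted p = 0.39 for sh3 and 0.18 for sh1 against shNC, and 0.76 between hairpins, edgeR). With log2 values of -0.65 ± 0.49 and -0.92 ± 0.49 (SE), a difference was not detectable at this depth. The locus overlaps the hepatic lipase gene LIPC on the opposite strand, which held 58 to 361 counts, so the count of ALDH1A2 is uncertain. LIPC fell, with log2 changes of -0.65 ± 0.21 (SE) with sh3 and -2.0 ± 0.22 with sh1 (adjusted p = 0.041 and 2.2e-05, edgeR), the direction in which the ALDH1A2 values lay; its part in them was not tested. As a share of the summed ALDH1A FPKM, ALDH1A3 made up 64.0% to 80.0% in sh3, 95.7% to 99.3% in sh1 and 95.3% to 97.1% in shNC. ALDH1A1 made up 19.5% to 35.4% of that sum in sh3, 0% to 2.53% in sh1 and 1.02% to 3.86% in shNC.

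CRABP2 (ENSG00000143320, chromosome 1, 156699606 to 156705816, minus strand), the retinoic acid carrier, had 2.36, 1.96 and 1.85 CPM in sh3, 2.34, 2.73 and 2.62 CPM in sh1 and 2.72, 3.04 and 2.67 CPM in shNC. The sh3 values lay below shNC and the sh1 values overlapped it. Neither change was called, at -0.45 ± 0.16 (log2, SE) with sh3 (adjusted p = 0.06, edgeR) and -0.13 ± 0.16 with sh1 (adjusted p = 0.57, edgeR). The sh3 difference passed under library totals (adjusted p = 0.046), in both limma fits and without sh3 replicate 1; over all alternatives its adjusted p lay between 0.014 and 0.17.

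The 3 receptors moved in different directions. RARA (ENSG00000131759, chromosome 17, 40309180 to 40357643, plus strand) had 33.1, 32.8 and 32.3 CPM in sh3, 35.1, 34.0 and 36.1 CPM in sh1 and 27.3, 26.7 and 25.6 CPM in shNC, with both hairpin groups above shNC. It rose by 0.30 ± 0.05 (log2, SE) with sh3 (adjusted p = 5.5e-04, edgeR) and by 0.40 ± 0.05 with sh1 (adjusted p = 3.1e-05, edgeR). The hairpins differed by -0.10 ± 0.05 in sh3 minus sh1, which was not called (adjusted p = 0.16, edgeR).

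RARG (ENSG00000172819, chromosome 12, 53210567 to 53232921, minus strand) had 62.9, 61.5 and 66.4 CPM in sh3, 46.4, 44.3 and 48.2 CPM in sh1 and 64.8, 63.8 and 62.9 CPM in shNC. The sh1 libraries lay below all others, and sh3 overlapped shNC. It fell by 0.46 ± 0.04 (log2, SE) with sh1 (adjusted p = 6.4e-06, edgeR), against -0.01 ± 0.04 with sh3 (adjusted p = 0.95, edgeR). The direct difference, sh3 minus sh1, was 0.46 ± 0.04 (adjusted p = 1.9e-05, edgeR).

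RARB (ENSG00000077092, chromosome 3, 24687887 to 25597929, plus strand) was the rarest receptor and the one with the largest change. Its libraries had 1.33, 1.05 and 2.30 CPM in sh3, 0.478, 0.707 and 0.542 CPM in sh1 and 3.47, 3.91 and 2.55 CPM in shNC. The 3 groups did not overlap, with sh1 lowest and shNC highest. RARB fell 2.12-fold with sh3 (log2 -1.08 ± 0.29 SE, adjusted p = 0.016, edgeR) and 5.75-fold with sh1 (log2 -2.52 ± 0.31 SE, adjusted p = 4.8e-05, edgeR). In sh3 minus sh1 it was higher by 1.44 ± 0.31 (log2, adjusted p = 0.0051, edgeR). With sh3 the call depended on single libraries: RARB gave -0.98 (adjusted p = 0.064) without sh3 replicate 1, -0.86 (adjusted p = 0.062) without sh3 replicate 2 and -0.95 (adjusted p = 0.065) without shNC replicate 2. Over all alternatives its adjusted p lay between 0.0026 and 0.065. As a rare gene, RARB gave smaller changes on the log2(FPKM + 1) scale, at -0.20 with sh3 and -0.32 with sh1 (adjusted p = 0.019 and 0.001, limma).

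Summed FPKM of the 3 receptors was 17.6 to 18.6 in sh3, 14.4 to 15.3 in sh1 and 16.55 to 17.4 in shNC. RARG took 63.1% to 64.7% of the sum in sh3, 54.4% to 55.1% in sh1 and 67.3% to 68.4% in shNC. RARA took 34.1% to 36.4% in sh3, 44.6% to 45.2% in sh1 and 30.1% to 30.7% in shNC. The ratio of RARG to RARA by FPKM was 1.80 ± 0.0897 in sh3, 1.22 ± 0.0156 in sh1 and 2.23 ± 0.0427 in shNC (SD, n = 3), and the 3 groups did not overlap. RARB took at most 1.21% in sh3, 0.472% in sh1 and 2.23% in shNC.

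**Figure D4:**
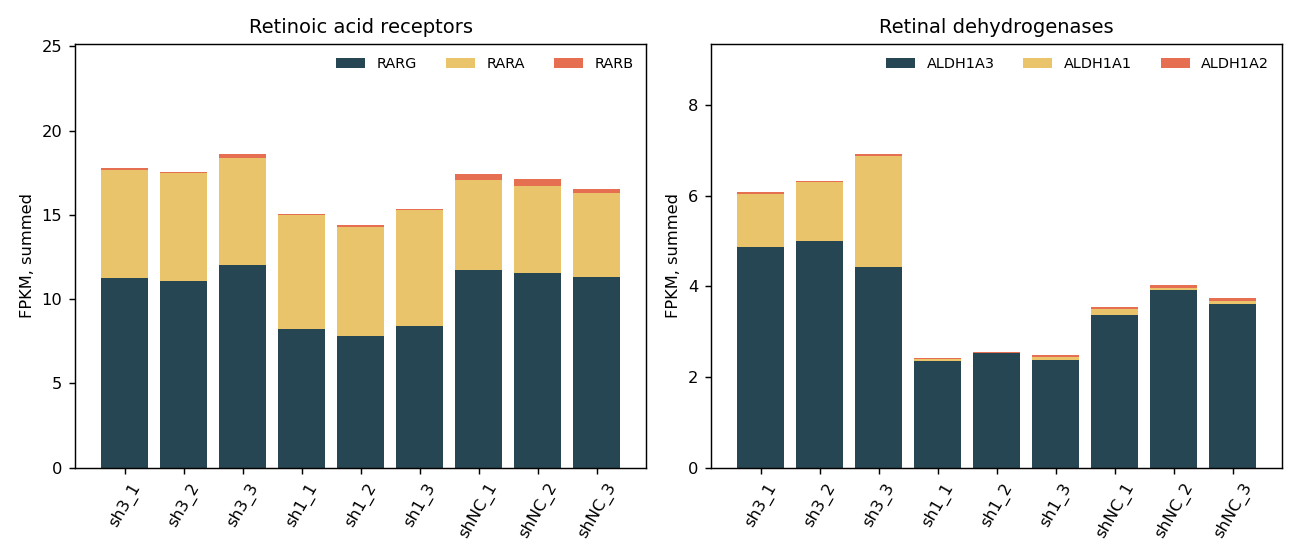
Stacked FPKM (vertical axes, linear from 0) per library of the 3 retinoic acid receptors (left) and the 3 retinal dehydrogenases (right), for sh3, sh1 and shNC. The RARA share is largest in sh1, at 44.6% to 45.2%, and the ALDH1A1 part is visible mainly in sh3, where it takes 19.5% to 35.4%.

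Promoter sequence is shown for RARB and DHRS3, 2 retinoic acid-induced genes of the set, whose values were lower in both hairpin groups. The other members were not sorted by whether retinoic acid induces them. Receptor heterodimers bind direct repeats of a hexamer, and the windows were searched on both strands for 2 hexamers in the same direction with a spacer of 1, 2 or 5 bases. Each hexamer could be AGGTCA, the consensus. It could also be the variant AGTTCA. Another variant allowed was GGGTCA. The last variant allowed was GGTTCA. RefSeq (GRCh38.p14) promoter windows of 250 bases before to 50 after a start were found for 8 of the 9 genes, 16 windows in all; RDH10 was not analysed here. One RARB window held a repeat with a spacer of 5, from position -53 to -37 relative to its start at 25428263. That match is made of the variants GGTTCA and AGTTCA and not of the consensus, so it depended on the variants allowed. The other windows of these 8 genes held none of the repeats. Of all 35116 windows, 31 (0.0883%) held the spacer-5 repeat on either strand, 14 (0.0399%) the spacer-2 repeat and 46 (0.131%) the spacer-1 repeat. The 250 bases before each start are given 5′ to 3′ on the gene's own strand, with the repeat and its spacer in capitals; no match says only that these letters are not in the window.
RARB, chr3:25428013-25428262, plus strand: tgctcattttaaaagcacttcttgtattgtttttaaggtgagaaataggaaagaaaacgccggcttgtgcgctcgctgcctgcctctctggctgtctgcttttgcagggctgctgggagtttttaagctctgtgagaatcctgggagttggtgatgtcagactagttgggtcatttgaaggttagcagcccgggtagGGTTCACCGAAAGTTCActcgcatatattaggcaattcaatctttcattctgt
DHRS3, chr1:12618211-12618460, minus strand: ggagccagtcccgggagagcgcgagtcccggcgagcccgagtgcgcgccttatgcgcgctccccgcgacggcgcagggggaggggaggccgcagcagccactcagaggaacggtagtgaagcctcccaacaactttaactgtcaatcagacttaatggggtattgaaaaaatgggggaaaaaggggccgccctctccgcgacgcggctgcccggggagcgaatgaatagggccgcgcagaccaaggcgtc

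Among 65 further pathway genes with a window, CYP26A1, the main retinoic acid-degrading enzyme and a classical target, was the only gene with a match. The CYP26A1 match too is made of an allowed variant and not of the consensus. Its spacer-5 repeat lies on the opposite strand of the window, from -90 to -74 relative to the start at 93073893 on chromosome 10, and reads in the gene's direction as follows.
CYP26A1: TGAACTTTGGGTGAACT
CYP26A1 stood at 0.0202 to 0.119 FPKM in sh3, 0 to 0.1205 in sh1 and 0.0185 to 0.144 in shNC, so no change was detectable (adjusted p = 0.83 and 0.96 for sh3 and sh1 against shNC, edgeR). The deposited RARB count covers the whole gene, and which of its 4 starts with a window was used cannot be read from it.

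Genes known to respond to retinoic acid formed a list of 30, of which 25 were tested. With sh3 against shNC 5 rose, 7 fell and 13 were not called, with a median log2 change of -0.04; with sh1 3 rose, 8 fell and 14 were not called, with a median of -0.09. With sh3 20% rose and 28% fell, beside 14.4% and 12.4% of all tested genes, whose median was -0.01. With sh1 12% rose and 32% fell, beside 19.9% and 18.8% of all genes, whose median was -0.019.

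The leading fall was that of PLAAT4, also called RARRES3, a phospholipase and acyltransferase that retinoids induce. Its libraries had 9.14, 8.43 and 8.17 FPKM in sh3, 2.56, 2.06 and 3.48 in sh1 and 26.9, 31.9 and 20.4 in shNC, in 3 separate ranges. On the log2 scale PLAAT4 changed by -1.62 ± 0.18 (SE) with sh3 (adjusted p = 4.2e-05, edgeR) and by -3.24 ± 0.19 with sh1 (adjusted p = 1.3e-07, edgeR). GPRC5A, a retinoic acid-induced orphan receptor, fell as well, with log2 changes of -0.67 ± 0.07 with sh3 and -1.85 ± 0.07 with sh1. TNFAIP2 gave -0.63 ± 0.10 with sh3 and -0.94 ± 0.10 with sh1, and NRIP1, a nuclear receptor corepressor, -0.33 ± 0.07 with sh3 and -0.86 ± 0.07 with sh1. RARRES2, which encodes the chemoattractant chemerin, gave -0.85 ± 0.11 with sh3 and -0.76 ± 0.11 with sh1. The largest adjusted p among these 4 genes was 0.0042 (edgeR).

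CYP26B1, a retinoic acid-degrading enzyme, had 0.985, 1.13 and 1.18 FPKM in sh3, 1.36, 1.60 and 1.42 in sh1 and 0.671, 0.818 and 0.764 in shNC, again in 3 separate ranges. It rose by 0.55 ± 0.13 (log2, SE) with sh3 (adjusted p = 0.0076, edgeR) and by 0.99 ± 0.13 with sh1 (adjusted p = 7.3e-05, edgeR). TGM2, a transglutaminase induced by retinoids, was 15.8 FPKM on average over the 9 libraries and gave -0.26 ± 0.09 with sh3 (adjusted p = 0.046, edgeR) and -0.06 ± 0.09 with sh1 (adjusted p = 0.65, edgeR). For TGM2 with sh3, 14 of 16 alternatives missed the threshold, with adjusted p between 2.0e-05 and 0.19. For TGM2 with sh1, leaving out shNC replicate 3 gave -0.18 and a call (adjusted p = 0.0026, range 0.0026 to 0.97).

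**Figure D5:**
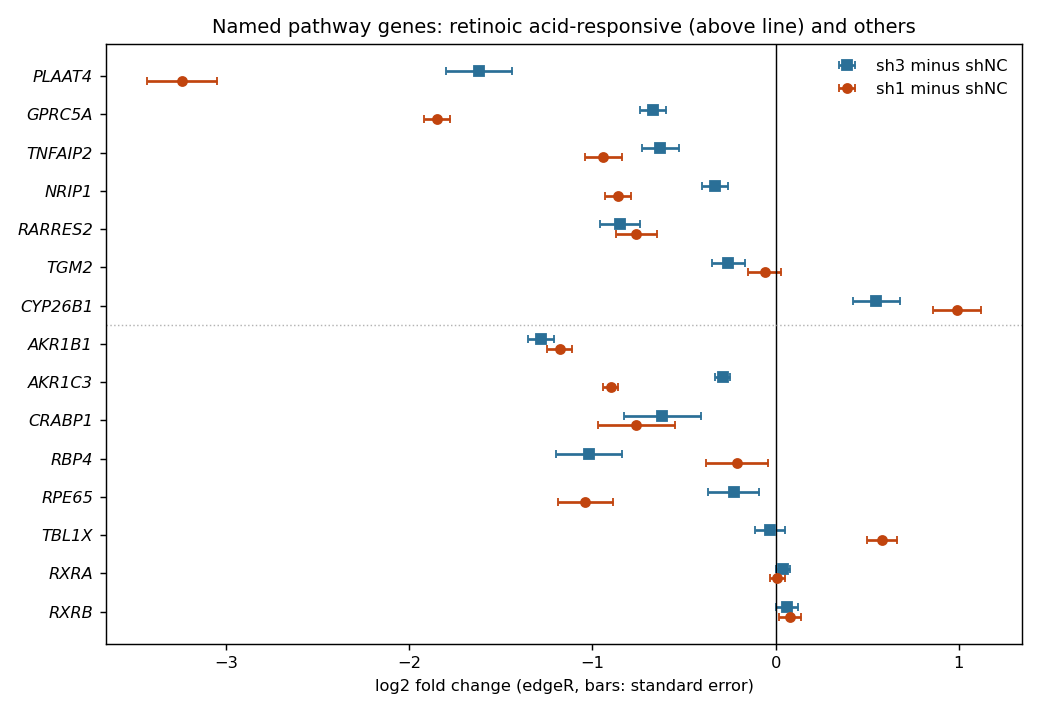
Log2 fold change (horizontal axis) with its standard error for pathway genes described in the text, in sh3 minus shNC (squares) and sh1 minus shNC (circles); genes above the dotted line are on the retinoic acid-responsive list. With sh1 PLAAT4 and GPRC5A lie farthest below 0 and CYP26B1 farthest above it; STRA6 and CYP26A1, which were near the detection floor, are not plotted.

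In the list of uptake, binding and storage genes, 16 of 19 were tested; 2 rose and 3 fell with sh3 (12.5% and 18.8%, beside 14.4% and 12.4% of all genes), and 3 rose and 4 fell with sh1 (18.8% and 25%, beside 19.9% and 18.8%). RBP4, the plasma retinol carrier, had 1.36, 1.71 and 2.19 FPKM in sh3, 3.16, 2.70 and 3.20 in sh1 and 3.13, 3.64 and 3.94 in shNC. It fell by 1.02 ± 0.18 (log2, SE) with sh3 (adjusted p = 0.0011, edgeR), against -0.21 ± 0.17 with sh1 (adjusted p = 0.39, edgeR), and the hairpins differed by -0.81 ± 0.18 in sh3 minus sh1 (adjusted p = 0.0054, edgeR). RPE65, the isomerase of the visual cycle, fell by 1.04 ± 0.15 with sh1 (adjusted p = 1.4e-04, edgeR) and gave -0.23 ± 0.14 with sh3 (adjusted p = 0.29, edgeR). CRABP1, the second cellular retinoic acid-binding protein, gave -0.62 ± 0.21 with sh3 (adjusted p = 0.044, edgeR) and -0.76 ± 0.21 with sh1 (adjusted p = 0.012, edgeR). For CRABP1 with sh3, 11 of 16 alternatives missed the threshold, with adjusted p between 0.0072 and 0.19. With sh1 it was missed without sh1 replicate 1 (adjusted p = 0.051) or shNC replicate 2 (adjusted p = 0.06), in a range of 0.0011 to 0.06. STRA6, the cell-surface receptor for retinol-binding protein, was at most 0.0611 FPKM in any library and was not called.

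Among other retinol and retinal oxidoreductases 14 of 21 were tested; 2 rose and 4 fell with sh3 (14.3% and 28.6%, beside 14.4% and 12.4% of all genes), and 1 rose and 4 fell with sh1 (7.14% and 28.6%, beside 19.9% and 18.8%). AKR1B1, an aldose reductase that can reduce retinal, had 55.0, 52.0 and 51.9 FPKM in sh3, 56.7, 54.1 and 55.8 in sh1 and 135.8, 111.4 and 138.2 in shNC. Its log2 change was -1.28 ± 0.07 (SE) with sh3 (adjusted p = 2.1e-07, edgeR) and -1.18 ± 0.07 with sh1 (adjusted p = 9.9e-08, edgeR). AKR1C3, whose count is uncertain because of its close paralogs, gave -0.29 ± 0.04 with sh3 and -0.90 ± 0.04 with sh1 (adjusted p = 1.2e-04 and 1.1e-08, edgeR). On the list of retinoic acid breakdown and other retinal dehydrogenases 4 of 5 genes were tested, and 1 rose and 1 fell with each hairpin. The gene that rose was CYP26B1. CYP1B1, named after its values were seen, fell, at -0.48 with sh3 and -0.57 with sh1. Its place on this list does not make CYP1B1 a retinoic acid-degrading enzyme, and its role was not tested.

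Of the receptor partners and coregulators 20 of 21 were tested; 4 rose and 5 fell with sh3 (20% and 25%, beside 14.4% and 12.4% of all genes), and 7 rose and 7 fell with sh1 (35% each, beside 19.9% and 18.8%). The heterodimer partners were not called with either hairpin: RXRA gave 0.04 ± 0.04 and 0.01 ± 0.04 (log2, SE) and RXRB 0.06 ± 0.06 and 0.08 ± 0.06 with sh3 and sh1 (smallest adjusted p = 0.28, edgeR). TBL1X, a subunit of the corepressor complex, rose by 0.58 ± 0.08 with sh1 (adjusted p = 6.8e-05, edgeR) and gave -0.03 ± 0.08 with sh3 (adjusted p = 0.82, edgeR). Over all 5 lists 73 of 90 genes were tested: 12 rose and 19 fell with sh3 (16.4% and 26%, beside 14.4% and 12.4% of all genes), and 13 rose and 23 fell with sh1 (17.8% and 31.5%, beside 19.9% and 18.8%).

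Likeness to DHRS3 in log2 CPM over the 9 libraries was ranked among 10873 other tested genes averaging at least 1 FPKM. Only genes with a protein-coding transcript type and no clone-style or LINC symbol were compared, and STXBP6 was left out. The most alike were KLHL24 (r = 0.992), B4GALNT3 (0.992), G0S2 (0.990), CAPS (0.989) and SCRN2 (0.988). Of the other retinoid genes RDH10 gave 0.891 and RARG 0.884, at ranks 892 and 959, followed by ALDH1A3 at 0.632, CRABP2 at 0.192 and RARA at -0.839. For ALDH1A1 the most alike were ZNF135 (r = 0.976), ESRRA (0.967), RHBDD3 (0.958), TCEAL3 (0.956) and TSG101 (0.955), and the other retinoid genes gave 0.784 for ALDH1A3 (rank 438), 0.687 for RARG, 0.314 for DHRS3, 0.058 for RARA, 0.027 for RDH10 and -0.782 for CRABP2; RARB and ALDH1A2, below 1 FPKM, were not compared. These values are descriptions over 9 libraries that fall into 3 groups.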

How the data were processed

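Raw counts for each gene in each library were deposited by the authors, with no normalization. Alongside them stand FPKM values made by the authors, per the file headers, which account for length and depth. The submitters' processing notes name GRCh38, HISAT2 2.2.1, cutadapt 1.9 and StringTie 2.1.6, together with edgeR and DESeq2. What each did, which annotation was used and whether counting used strand is not stated in any source used here. Counts were tested with edgeR 4.0.16 in R 4.3.3 by its quasi-likelihood functions, after filterByExpr (default minimum count of 10) and TMM scaling. The design held a mean for each group, no block, and all 9 libraries. Calls needed an adjusted p (Benjamini-Hochberg, 21296 genes, two-sided) under 0.05, and the standard error was the absolute log2 fold change divided by the square root of F. CPM used TMM-scaled totals, and levels between genes were compared as FPKM. The 9 genes, the 5 pathway lists and the 4 marker lists were chosen with earlier results of these data known, and give no independent support for a pattern seen before.

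Named pathway genes were, per list, up to 6 called genes with an absolute log2 change of at least 0.58 with either hairpin and a mean of at least 1 FPKM, by size, and 9 fixed by name; some of these are not reported here. The 5 most similar genes were taken by Pearson's r. Alternatives were DESeq2 1.42.0, library totals, no filter, the replicate number as a block, limma 3.58.1 on log2(FPKM + 1) and log2(FPKM + 0.1), the 2 groups compared alone, and each library left out. No replicate pair was a copy of the other: chi-square per degree of freedom was 8.51 to 17.3. The largest values, 15.6 and 17.3, came from the pairs of shNC replicate 3 with the other shNC libraries. All remaining pairs gave at most 10.3. Tested on simulated data for sh1 against shNC over 20660 genes, the fit recovered 56 of 100 genes changed by 1 and 76 of 100 changed by 2 on the log2 scale, with 6 false calls.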

Additional observations from a re-analysis of the deposited data

Results flagged for a closer look

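The response to the hairpins differed between sh3 and sh1 in 4 of the 7 tested retinoid genes, by the direct test of sh3 minus sh1 over all genes. The same test called 25.9% of all tested genes. The CPM values of sh3 lay wholly above those of sh1 for 21% of all tested genes. RARB gave 1.44 on the log2 scale, with all 3 sh3 values above all 3 sh1 values, and that call was lost with limma on log2(FPKM + 1) (adjusted p = 0.11, range 1.6e-04 to 0.11 over the alternatives). ALDH1A3 gave 0.95 and was the only one of the 4 that stood above shNC in sh3 and below it in sh1. RARG gave 0.46 and RDH10 gave 0.35, each higher in 3 of 3 sh3 libraries than in any sh1 library. Groups of 3 libraries are too small for the test of single outlying libraries.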

How the results depend on the processing

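The counts of called genes, of called pathway genes and of the 13 calls among the 7 tested retinoid genes stayed within 1.5 times their values in every alternative. Leaving out single libraries gave 4690 to 5925 genes for sh3 minus shNC, 7195 to 8194 for sh1 minus shNC, 4312 to 5996 for sh3 minus sh1, and 12 to 13 calls among the retinoid genes; for pathway genes it gave 24 to 32, 32 to 40 and 20 to 35. The replicate numbers did not pair the libraries (correlation of deviations -0.032 to 0.021 in 9 same-numbered pairs). With the replicate block 5446 genes were called for sh3 minus shNC, 7951 for sh1 minus shNC and 5125 for sh3 minus sh1, and all 13 retinoid calls were made; the CRABP1 and TGM2 calls for sh3 were lost (adjusted p = 0.057 and 0.054, ranges 0.0072 to 0.19 and 2.0e-05 to 0.19). Signs turned for RARG, RXRA, CYP26A1, STRA6, TGM2 and TBL1X, none of them called in that comparison with all libraries. RARG for sh3 gave 0.00 without a filter and 0.00, 0.02 and 0.01 without sh3 replicate 1, sh3 replicate 2 or shNC replicate 1. RXRA for sh1 gave -0.03 under library totals, -0.02 in both limma fits and between -0.01 and 0.00 without sh1 replicate 1 or 2 or shNC replicate 1 or 2. Leaving out single libraries, CYP26A1 ranged from -0.75 to 0.65 for sh1 (0.49 without sh1 replicate 1) and -1.37 to 0.33 for sh3, STRA6 from -2.52 to 0.59 for sh1, TGM2 from -0.18 to 0.03 for sh1, TBL1X from -0.09 to 0.04 for sh3, RARG from -0.03 to 0.02 for sh3 and RXRA from -0.01 to 0.04 for sh1. The pseudocount of 1 drew low genes toward 0, DHRS3 to -1.11 for sh3 and -1.75 for sh1 ALDH1A1 to 1.25 for sh3, and RARB to -0.20 for sh3, -0.32 for sh1 and 0.13 for sh3 minus sh1. Under library totals the split of calls over all genes turned, with 2683 higher and 3042 lower for sh3 and 3715 higher and 4495 lower for sh1 (46.9% and 45.2% higher, against 53.7% and 51.3% under TMM). STRA6 for sh1 gave no value with those 2 groups alone.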

Other observations

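Among the shNC libraries, replicate 3 was the lowest for 5 of the 9 retinoid genes and the highest for 0, where 35.9% of all tested genes were lowest and 37.2% highest there. The gap was widest for DHRS3, at 4.53 CPM against 15.1 and 14.3 CPM in the other shNC libraries, and RARB had 2.55 CPM there against 3.47 and 3.91. On the retinoic acid-responsive list 9 of 25 tested genes were lowest in that library and 9 were highest. PLAAT4 stood at 20.4 FPKM there against 26.9 and 31.9 and TNFAIP2 at 24.9 against 35.3 and 35.7, while GPRC5A stood at 10.5 against 9.61 and 9.37. Without this library the comparison of sh3 with shNC still called RARB.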
